A study of Mus musculus with 8 samples.

Results

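*Snai1*, *Snai2*, *Twist1*, *Twist2*, *Zeb1*, *Zeb2*, *Msx1*, *Msx2*, *Sox9* and *Prrx1* are transcription factors of the epithelial to mesenchymal transition (EMT) and of the heart cushions. They were taken by name from the table of gene expression of mouse embryonic outflow tract (OFT, the vessel through which the embryonic heart empties), and all 10 were among its 14608 genes. The 10 genes were read in 8 libraries of OFT tissue from embryonic day (E) 11.5. In 4 libraries the genotype is given as Control and the sample titles read WT, with no further detail of the alleles. In 4 the genotype is *Mib1V943F/+ Gata6STOP/+*, here called mutant. Mutant embryos carried 1 missense allele of *Mib1*, an E3 ubiquitin ligase needed for signalling by NOTCH ligands, and 1 null allele of *Gata6*, a zinc finger transcription factor of the heart. The alleles were combined in trans by crossing mouse lines, and the methods list no Cre line. Each library was a pool, for which the labels give 3 individuals in 4 samples per genotype while the methods give 3 pools of 4 pairs of OFT, so the number of embryos behind a library is not known and p-values measure the spread between these pools. Sex and strain background are not given in the sources used here. In bulk tissue, fewer cells of a type and less RNA per cell cannot be told apart.

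During EMT, cells lose their junctions and polarity, leave an epithelial or endothelial sheet and move into the matrix as mesenchyme. In the OFT, endocardial cells invade the cushions in this way and meet mesenchyme that descends from the neural crest, and the cushions later form the aortic and pulmonary valves. SNAI and ZEB proteins are repressors that bind E-boxes, among them those of junction genes such as *Cdh1*, and NOTCH, BMP and TGF beta signals from the myocardium and endocardium induce several of them in cushion cells.

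The reads on listed genes, derived here from the step between low values of each library, numbered 10669420 to 28212669 in the control libraries (median 25398744) and 21064242 to 30469165 in the mutant libraries (median 26668733.5). The unit is CPM (the counts of a gene as a share of its library, after scaling by TMM as the authors deposited them), in which 1 read was worth 0.0325 to 0.0948 CPM. Between 127 and 3359 reads stood behind each value of the 10 genes, so they were measured well above the detection limit in every library. *Gata6* RNA, at 236 to 279 CPM in control and 213 to 284 CPM in mutant libraries, did not separate the groups (log2 fold change -0.08, limma p = 0.752 after Benjamini-Hochberg adjustment over all genes, exact permutation p = 0.543). *Mib1* RNA, at 107 to 138 and 123 to 137 CPM, did not separate them either, so in these libraries the RNA of the targeted genes does not check the labels. Mutant replicate 2 stood apart, with a chi-square per gene of 30.8 to 33.7 against the other mutant libraries, which differed from each other by 9.38 to 12.4, and the control libraries by 6.67 to 18.5. Log2 fold changes of the members and of named list genes that moved by over 1.5 times without it are given with and without it.

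The upstream sequence of 4 members shows where short motifs of the same factor families occur around their own start sites. RefSeq windows of 250 bases before and 50 bases after the start (GRCm38.p6) were found for 7 members, and not for *Snai2*, *Zeb1* and *Sox9*. The capitals mark CACCTG (the E-box bound by SNAI and ZEB proteins) in *Snai1* and *Msx1*, TAATTA (a homeodomain core, as of MSX and PRRX proteins) in *Prrx1*, and ATTGT (the reverse complement of the SOX core ACAAT) in *Twist1*. Each line gives 100 bases, 5′ to 3′ on the strand of the gene.
Snai1, chr2:167538022-167538121, plus strand: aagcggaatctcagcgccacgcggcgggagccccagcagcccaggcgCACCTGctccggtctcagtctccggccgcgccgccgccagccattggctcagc
Msx1, chr5:37824736-37824835, minus strand: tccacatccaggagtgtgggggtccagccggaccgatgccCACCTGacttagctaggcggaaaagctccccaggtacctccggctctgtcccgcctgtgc
Prrx1, chr1:163313771-163313870, minus strand: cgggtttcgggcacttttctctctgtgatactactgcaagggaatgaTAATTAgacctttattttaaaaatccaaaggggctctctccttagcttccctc
Twist1, chr12:33957434-33957533, plus strand: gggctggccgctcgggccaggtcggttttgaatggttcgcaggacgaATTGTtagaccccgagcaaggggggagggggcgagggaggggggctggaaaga
The E-box of *Snai1* lies from -126 to -121 relative to the start, that of *Msx1* from -210 to -205, the TAATTA of *Prrx1* from -173 to -168 and the ATTGT of *Twist1* from -190 to -186.

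Searched on both strands, CACCTG was in the windows of 2 of 7 members and in 20.2% of 32851 windows of the same length, and ACAAT was in 2 of 7 members and 31.0% of windows. TAATTA was in 2 of 7 members, *Msx2* and *Prrx1*, against 5.29% of windows. The TWIST-type E-box CATCTG (17.2% of windows), the RBPJ core GTGGGAA (6.38%, the DNA-binding protein of the NOTCH pathway) and the GATA motif AGATAA (11.2%) were in 0 of 7. None of the 6 motifs contains another, and a match describes the sequence only, not a bound site.

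Per kilobase of exon, *Twist1* was the most abundant of the 10 RNAs in control OFT and *Zeb2* the least. The level, as CPM per kb of the exon union of GENCODE M21, was 61.5 ± 11.8 (SD, n = 4) for *Twist1*, 26.4 ± 3.71 for *Sox9*, 12.8 ± 1.67 for *Snai2*, 11.99 ± 1.74 for *Snai1* and 8.59 ± 0.621 for *Zeb1*. It was 4.43 ± 0.783 for *Msx1*, 4.06 ± 0.748 for *Prrx1*, 3.90 ± 0.547 for *Msx2*, 2.97 ± 0.750 for *Twist2* and 2.93 ± 0.364 for *Zeb2*. The control libraries did not overlap between *Twist1* and *Sox9*, *Sox9* and *Snai2*, *Snai1* and *Zeb1*, or *Zeb1* and *Msx1*. They overlapped between *Snai2* and *Snai1* and between all neighbours in the order from *Msx1* down to *Zeb2*. The union adds up the exons of all isoforms, so the long 3′ ends and alternative exons of *Zeb1* (10266 bases), *Prrx1* (11066 bases) and *Zeb2* (19942 bases) lower their values by an amount not known here. Within the families, the first-named paralog was the higher per kilobase for *Twist1* over *Twist2* and *Zeb1* over *Zeb2*, in all 4 control libraries.

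In mutant OFT the RNA levels of the 10 factors were estimated at 0.960-fold (*Sox9*) to 1.19-fold (*Prrx1*) of those in control OFT. The next after *Prrx1* were *Snai2* and *Zeb2*, both at 1.13-fold, and no member passed the test. Differential expression was tested in limma on log2(CPM + 0.5) over all 14608 genes, with Benjamini-Hochberg adjustment. Of the 10 members, 0 passed an adjusted p-value of 0.05, and the same was true of 0% of all genes (smallest adjusted p = 0.124). At an unadjusted limma p-value under 0.05 there were 0 of 10 members, against 1763 genes or 12.1% of the table (5.45% higher and 6.62% lower in the mutant). The control and mutant libraries overlapped for every member, whereas they did not overlap for 7.1% of all genes. A count model was not run. The 95% confidence intervals of the members together spanned 0.779-fold (the lower bound of *Twist2*) to 1.45-fold (its upper bound), on the log2(CPM + 0.5) scale, which slightly understates changes of low genes.

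**Figure D1:**
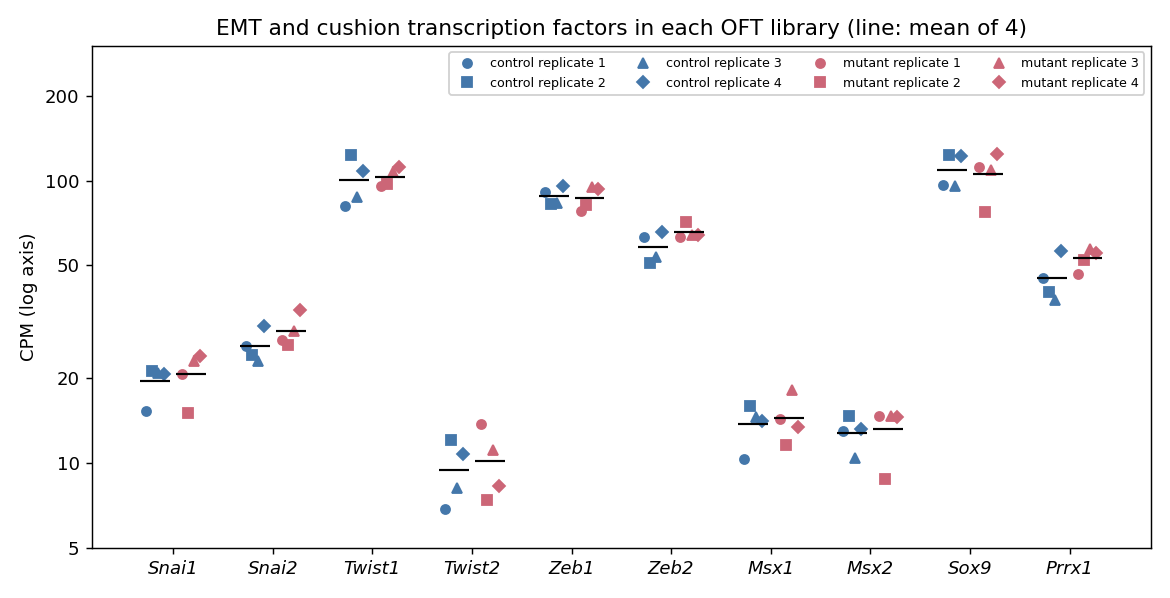
CPM (log axis) of the 10 transcription factors in each of the 8 OFT libraries, control in blue and mutant in red, with 1 symbol per replicate number and a black line at the mean of 4. Control and mutant points overlap for every gene. The square of mutant replicate 2 is the lowest of all 8 points for *Snai1*, *Msx2* and *Sox9*, and the lowest red point also for *Snai2*, *Twist2* and *Msx1*.

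*Snai1* (ENSMUSG00000042821, chromosome 2 from 167538195 to 167542814, plus strand of GRCm38) encodes the zinc finger repressor that can start EMT by silencing junction genes. Control replicates 1 to 4 gave 15.2, 21.1, 20.8 and 20.7 CPM, and mutant replicates 1 to 4 gave 20.6, 15.05, 23.0 and 23.9 CPM. Control replicate 1 and mutant replicate 2 lay at about the same low level, apart from the other 6 libraries. The means were 19.4 ± 2.82 and 20.6 ± 3.97 CPM (SD, n = 4), a log2 fold change of 0.08 (95% confidence interval -0.25 to 0.40, limma adjusted p = 0.853, exact permutation p = 0.657). Without mutant replicate 2 the mutant mean was 22.5 ± 1.67 CPM and the log2 fold change 0.22, and without control replicate 1 the latter was -0.035, so its sign depended on single libraries.

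*Snai2* (ENSMUSG00000022676, chromosome 16 from 14705852 to 14709385, plus strand), the paralog known as Slug, has roles in neural crest cells and in cushion EMT. Control replicates 1 to 4 held 25.9, 24.1, 22.9 and 30.6 CPM and mutant replicates 1 to 4 held 27.3, 26.1, 29.4 and 34.7 CPM. All 4 mutant libraries lay above the control mean, but control replicate 4 lay above 3 of them. The log2 fold change was 0.18 (95% confidence interval -0.06 to 0.42, limma adjusted p = 0.518, exact permutation p = 0.20), from 25.8 ± 3.38 to 29.4 ± 3.78 CPM (SD, n = 4).

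*Twist1* (ENSMUSG00000035799, chromosome 12 from 33957671 to 33959829, plus strand) encodes a basic helix-loop-helix (bHLH) factor of cushion and neural crest mesenchyme. Its levels in control replicates 1 to 4 were 81.3, 123, 87.6 and 108 CPM, and in mutant replicates 1 to 4 they were 95.5, 97.1, 107 and 111 CPM. The mutant libraries lay inside the control range, which was set by replicate 1 at its low end and replicate 2, the shallowest library, at its high end. From 100.1 ± 19.2 to 103 ± 7.66 CPM (SD, n = 4), the log2 fold change was 0.05 (95% confidence interval -0.20 to 0.31, limma adjusted p = 0.865, exact permutation p = 0.743).

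*Twist2* (ENSMUSG00000007805, chromosome 1 from 91801461 to 91848028, plus strand), its paralog in mesenchyme and dermis, was the lowest of the members in CPM. It stood at 6.84, 12.04, 8.11 and 10.8 CPM in the control and at 13.7, 7.36, 11.1 and 8.26 CPM in the mutant libraries (replicates 1 to 4). High and low libraries alternated within both groups, and the highest was 1.998 times the lowest. Its coefficient of variation was 25.2% in control and 28.4% in mutant, and the log2 fold change was 0.09 (95% confidence interval -0.36 to 0.53, limma adjusted p = 0.879, exact permutation p = 0.686), or 0.22 without mutant replicate 2.

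*Zeb1* (ENSMUSG00000024238, chromosome 18 from 5591860 to 5775467, plus strand) encodes a repressor with zinc finger clusters at both ends and a homeodomain between them. The 4 control libraries read 91.0, 82.4, 83.4 and 95.8 CPM, and the 4 mutant libraries 78.0, 82.0, 94.7 and 93.4 CPM. Each group held a low pair and a high pair at nearly the same levels. *Zeb1* had the narrowest interval of the 10 genes, with a log2 fold change of -0.02 (95% confidence interval -0.20 to 0.16, or 0.871- to 1.12-fold, limma adjusted p = 0.929, exact permutation p = 0.743), or 0.0064 without mutant replicate 2.

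*Zeb2* (ENSMUSG00000026872, chromosome 2 from 44983632 to 45117395, minus strand) encodes the SMAD-interacting paralog, with functions in neural crest and in EMT. Control libraries were at 63.0, 50.8, 53.7 and 66.0 CPM and mutant libraries at 63.1, 71.3, 64.2 and 64.3 CPM for replicates 1 to 4. Control replicates 2 and 3 were the low ones and mutant replicate 2 the high one, while the other 5 libraries lay within a few CPM of each other. The log2 fold change was 0.18 (95% confidence interval -0.02 to 0.37, limma p = 0.0721 and adjusted p = 0.444, exact permutation p = 0.20), from 58.4 ± 7.26 to 65.7 ± 3.75 CPM (SD, n = 4).

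*Msx1* (ENSMUSG00000048450, chromosome 5 from 37820485 to 37824583, minus strand) encodes a homeodomain repressor that acts downstream of BMP signals in cushion and craniofacial mesenchyme. Among control replicates 1 to 4 it measured 10.3, 15.9, 14.6 and 14.1 CPM, and among mutant replicates 1 to 4 it measured 14.2, 11.6, 18.2 and 13.4 CPM. Control replicate 1 was the lowest library and mutant replicate 3 the highest, with the rest between. Its log2 fold change was 0.06 (95% confidence interval -0.27 to 0.40, limma adjusted p = 0.882, exact permutation p = 0.743), or 0.16 without mutant replicate 2.

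*Msx2* (ENSMUSG00000021469, chromosome 13 from 53466884 to 53473074, minus strand), which acts together with *Msx1* in the OFT and the neural crest, read 12.9, 14.7, 10.4 and 13.1 CPM in control and 14.6, 8.76, 14.6 and 14.5 CPM in mutant replicates 1 to 4. Of the mutant libraries, 3 had almost the same level and replicate 2 lay far under them and under every control library. The log2 fold change was 0.02 (95% confidence interval -0.34 to 0.38, limma adjusted p = 0.972, exact permutation p = 1). Without mutant replicate 2 the mutant mean was 14.6 ± 0.056 CPM (SD over the other 3) against 12.8 ± 1.79 CPM in control, and the log2 fold change was 0.19 with an adjusted p of 0.644 from limma.

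*Sox9* (ENSMUSG00000000567, chromosome 11 from 112782224 to 112787760, plus strand) encodes an HMG box factor of cushion mesenchyme that drives the expression of cartilage-type matrix genes. Its 4 control values were 96.2, 123, 95.7 and 122 CPM, and its 4 mutant values 111, 77.7, 109 and 124 CPM. Control fell into a low pair (replicates 1 and 3) and a high pair (replicates 2 and 4), and mutant replicate 2 was again the lowest of all 8 libraries. At 109 ± 15.3 and 106 ± 19.7 CPM (SD, n = 4), the log2 fold change was -0.06 (95% confidence interval -0.36 to 0.24, limma adjusted p = 0.875, exact permutation p = 0.8286). Without mutant replicate 2 the value was 0.08 and the mutant mean 115 ± 7.94 CPM.

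*Prrx1* (ENSMUSG00000026586, chromosome 1 from 163245119 to 163313710, minus strand) encodes a paired-related homeodomain factor of early mesenchyme. Readings of 45.3, 40.4, 37.7 and 56.5 CPM in control replicates 1 to 4 stood against 46.8, 52.3, 57.3 and 55.6 CPM in mutant replicates 1 to 4. Every mutant library lay above control replicates 1, 2 and 3, and control replicate 4 lay among the mutant libraries. *Prrx1* had the largest log2 fold change of the 10 genes, 0.25 (95% confidence interval -0.01 to 0.50, limma p = 0.0547 and adjusted p = 0.422, exact permutation p = 0.143), from 44.97 ± 8.28 to 53.0 ± 4.63 CPM (SD, n = 4). Control replicate 4 was the highest control library for *Prrx1*, *Zeb2* and *Snai2*, and without it their log2 fold changes were 0.36, 0.24 and 0.26. All 3 then had an unadjusted limma p under 0.05, and the lowest adjusted p was 0.181, that of *Prrx1*. In that fit 1068 of all 14608 genes were higher and 1095 lower at the unadjusted level, against 796 and 967 with all 8 libraries. Leaving out other libraries moved the 3 log2 fold changes the other way. They fell to 0.099 for *Snai2* without mutant replicate 4, 0.11 for *Zeb2* without control replicate 2 and 0.17 for *Prrx1* without control replicate 3.

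**Figure D2:**
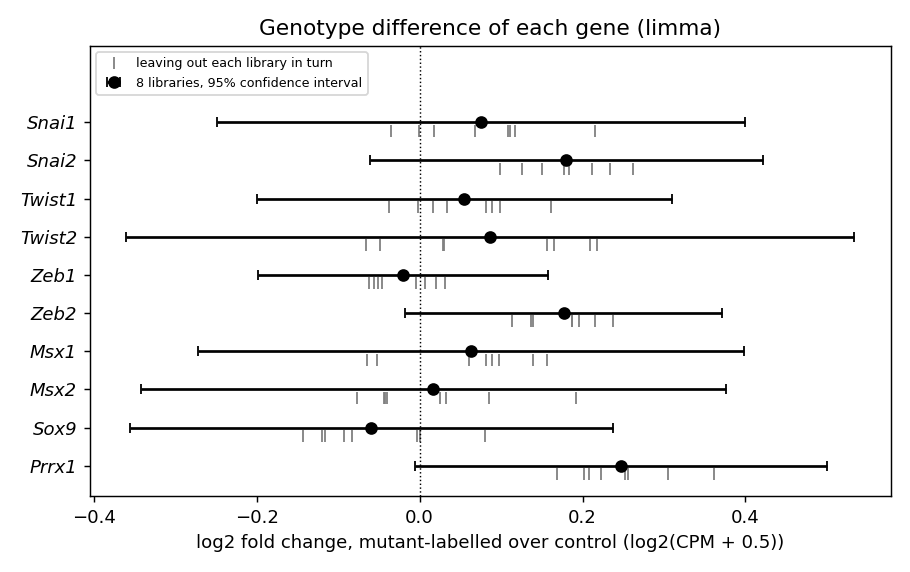
Log2 fold change, mutant over control, of each member on log2(CPM + 0.5) from limma, with the 95% confidence interval as a bar and the values found by leaving out each library in turn as grey ticks. All 10 intervals include 0, and the ticks of *Snai2*, *Zeb2* and *Prrx1* all lie to the right of it.

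Of the 10 members, 8 had a log2 fold change above 0, where 50.4% of all genes did, and their median was 0.07 against 0.001 for the 14608 genes. The count of 8 became 4 without control replicate 1 and 10 without mutant replicate 2, and the median then -0.02 and 0.17, so the shared direction depended on single libraries. *Snai2*, *Zeb2* and *Prrx1* were the members for which all 4 mutant libraries exceeded the control mean, and the only ones whose log2 fold change kept its sign whichever library was left out.

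*Snai2*, *Zeb2* and *Prrx1*, the members with the largest log2 fold changes, also had the lowest GC content. The part of base composition in the differences was not tested beyond the correction given here. The GC content of the longest transcript was 42.6% for *Snai2*, 40.6% for *Zeb2*, 43.6% for *Prrx1* and 46.1% for *Zeb1*, 48.5% for *Msx2*, 49.3% for *Sox9*, 52.6% for *Twist2*, and 58.2% to 59.8% for *Msx1*, *Twist1* and *Snai1*. Over all genes, log2 CPM relative to the mean of the 8 libraries changed by 0.21 per 10% of GC in control replicate 2, 0.10 in control replicate 3 and -0.18 in mutant replicate 2, and by -0.05 to 0.02 in the other libraries. With each library's GC trend removed, the log2 fold change was 0.09 for *Snai2*, 0.06 for *Zeb2* and 0.17 for *Prrx1*, and 0.19 for *Snai1*, 0.17 for *Twist1* and 0.16 for *Msx1*. The order of the members by fold change thus depended on the correction, while their median became 0.10 and 8 of 10 stayed above 0. For *Snai2* the adjusted p was then 0.817, for *Zeb2* 0.732 and for *Prrx1* 0.588 by limma.

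The spread between libraries of a group differed among the members. The SD of log2(CPM + 0.5) within groups was 0.37 for *Twist2*, 0.29 for *Msx2*, 0.26 for *Msx1* and for *Snai1* and 0.25 for *Sox9*, and 2.20% to 7.999% of the genes whose mean reached 5 CPM had a larger one. It was 0.12 for *Zeb1* and 0.14 for *Zeb2*, which 57.0% and 45.7% of such genes exceeded. Thus *Zeb1* and *Zeb2* varied like the typical gene of these libraries, and *Twist2*, the MSX genes, *Snai1* and *Sox9* varied more than most genes.

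Libraries tended to be high or low for many members at once. The same counts were not made over all genes, so whether the members differ from other genes in this was not tested. In control replicate 4 and mutant replicate 3, 10 of 10 members were above their own mean over the 8 libraries, and in mutant replicate 4 there were 8. In control replicate 3 and mutant replicate 2 there were 2 of 10, and in control replicate 1 there were 3. The members at their lowest in mutant replicate 2 were *Snai1*, *Msx2* and *Sox9*, and those at their lowest in control replicate 1 were *Twist1*, *Twist2* and *Msx1*. Both genotypes therefore held libraries with most members high and libraries with most members low.

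**Figure D3:**
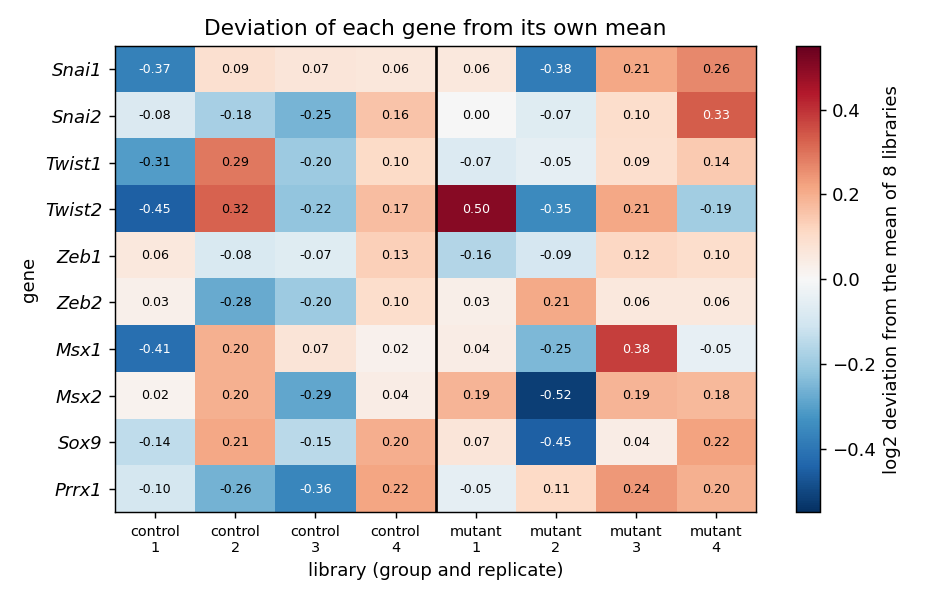
Deviation of log2(CPM + 0.5) of each member from its mean over the 8 libraries, with control replicates in the left 4 columns and mutant replicates in the right 4. Control replicate 4 and mutant replicate 3 are above the mean for 10 of 10 genes, and the lowest cell is *Msx2* in mutant replicate 2.

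Across the 8 libraries, 38 of the 45 pairs of members had a positive Pearson correlation of log2(CPM + 0.5) (median r = 0.434, range -0.40 to 0.88), and 0 pairs passed Benjamini-Hochberg adjustment over the 45 exact permutation p-values, for Pearson's r or for Spearman's rho, with 6 at an unadjusted p under 0.05. Paralogs were not the closest pairs: r was 0.43 for *Snai1* and *Snai2*, 0.56 for *Twist1* and *Twist2*, 0.31 for *Zeb1* and *Zeb2*, and 0.46 for *Msx1* and *Msx2*. The libraries share tissue composition and base composition, whose part in these values was not tested beyond the figures given here. The share of positive pairs among other genes was not computed.

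The 2 highest correlations joined *Msx2* with *Sox9* and *Snai2* with *Prrx1*. For *Msx2* and *Sox9*, r was 0.88 (exact permutation p = 0.0051, adjusted 0.136) and rho 0.74 (exact permutation p = 0.0458). Without control replicate 3 and mutant replicate 2, the 2 libraries farthest from the median of *Msx2*, r was 0.45. That choice shortens the range of *Msx2*, so the lower r cannot show that the correlation rested on these libraries. The lowest r with any 1 library left out was 0.69, and within groups of 4 it was 0.74 in control and 0.96 in mutant libraries. For *Snai2* and *Prrx1*, r was 0.86 (exact permutation p = 0.0060, adjusted 0.136) and rho 0.88 (exact permutation p = 0.0072), and r was 0.88 without control replicate 3 and mutant replicate 4. The r of their deviations from the group means was 0.81 (adjusted 0.125), and within groups of 4 it was 0.999 in control and 0.55 in mutant libraries.

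Among the pairs with *Zeb2*, its correlation with *Prrx1* was 0.82 (exact permutation p = 0.0143, adjusted 0.174, rho 0.76 with exact permutation p = 0.0368). It was 0.31 without control replicates 2 and 3, the libraries farthest from the median of *Zeb2*, a choice that shortens its range. With the GC correction described next it was 0.85 (exact permutation p = 0.0039, adjusted 0.127). The 7 negative pairs were *Zeb2* with *Snai1*, *Twist1*, *Twist2*, *Msx1*, *Msx2* and *Sox9*, and *Twist2* with *Zeb1*. With the GC trend of each library removed, a correction added after seeing the data, 43 of 45 pairs were positive and the r of *Zeb2* with *Snai1* went from -0.34 to 0.32 and with *Msx1* from -0.40 to 0.27. Under the same correction the r of *Snai1* with *Snai2* went from 0.43 to 0.83, that of *Msx2* with *Sox9* was 0.89 and that of *Snai2* with *Prrx1* was 0.76, and 0 pairs passed the adjustment. Negative pairs thus numbered 2 in place of 7 once base composition was taken out.

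**Figure D4:**
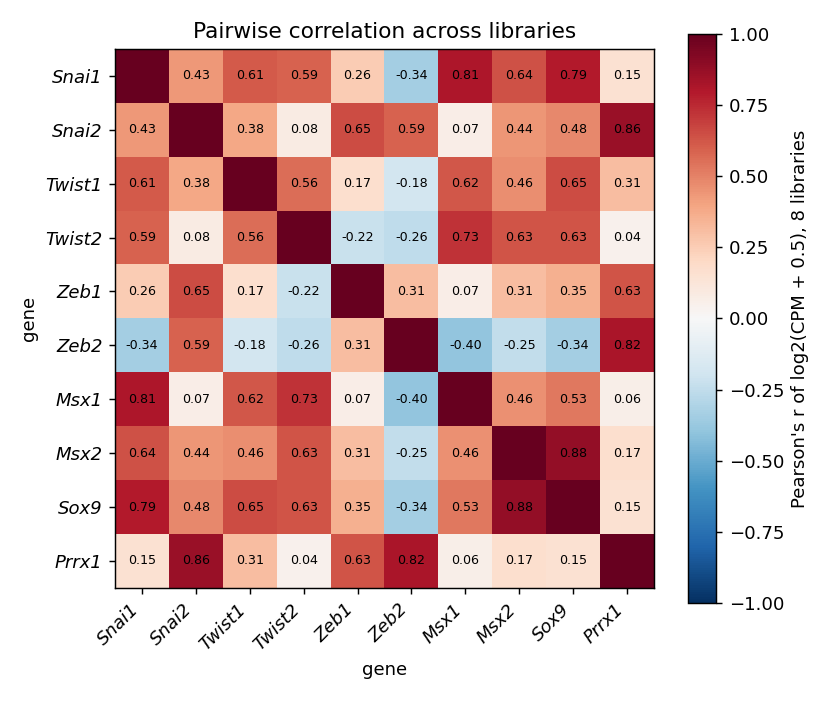
Pearson's r of log2(CPM + 0.5) across the 8 libraries for each pair of members, as deposited, with no GC correction. Of 45 pairs, 38 are positive, and the row of *Zeb2* holds 6 of the 7 negative ones.

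Among 11634 other genes whose mean reached 5 CPM, those whose pattern over the 8 libraries was most like a member's are given as a description with no test, since they are the highest picked from so many correlations over 8 points. The closest were *5031425E22Rik* (r = 0.94) for *Snai1*, *Dclk1* (0.96) for *Snai2*, *Sox4* (0.93) for *Twist1*, *Cnih2* (0.97) for *Twist2*, *Lrrk1* (0.96) for *Zeb1*, *Cdc27* (0.99) for *Zeb2*, *Tppp3* (0.97) for *Msx1*, *Hyou1* (0.97) for *Msx2*, *Ube2r2* (0.96) for *Sox9* and *Zfp9* (0.95) for *Prrx1*. *Zfp9* was also the third for *Snai2* (r = 0.93). *Sox4*, the closest to *Twist1*, is itself a transcription factor of the cushions, and *Wnt11*, a secreted ligand of the OFT, followed *Msx1* with r = 0.95. *Gata3*, a zinc finger factor of the GATA family, followed *Msx2* with r = 0.96.

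The genes that act before, beside and after the 10 factors were read from 7 lists of 138 genes in all. In every list 0 genes passed the adjusted threshold in limma, so each is described by its count at an unadjusted p under 0.05, its median log2 fold change and its values, beside 12.1% of all genes at the unadjusted level and a median of 0.001. Leaving out mutant replicate 2, an alternative added after seeing the data, moved the count of BMP and TGF beta genes from 8 to 5 and that of other cushion transcription factors from 1 to 4. Over all 14608 genes it moved the counts at that level from 796 higher and 967 lower to 532 higher and 798 lower.

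Of the 27 BMP and TGF beta signalling genes, which hold the ligands, receptors and SMADs that induce SNAI, TWIST and MSX genes, 4 were higher and 4 lower in the mutant at the unadjusted level (median log2 fold change 0.03). *Bmp7*, a ligand from the myocardium, was at 136 ± 3.56 CPM in control and 109 ± 10.01 CPM in mutant libraries (SD, n = 4), which did not overlap (log2 fold change -0.33, adjusted p = 0.204 from limma, exact permutation p = 0.0286). *Bmp10*, a ligand of the trabecular myocardium, was at 53.0 ± 23.4 and 20.4 ± 18.4 CPM, with overlap (log2 fold change -1.83, adjusted p = 0.308, and -1.18 with adjusted p = 0.454 without mutant replicate 2). The type I receptor gene *Bmpr1b* was at 1.73 ± 0.688 and 2.85 ± 0.340 CPM (log2 fold change 0.63, adjusted p = 0.329). The levels of both myocardial ligands were thus lower on average in the mutant, where the sum of 11 cardiomyocyte markers was lower too (20655 to 24376 CPM against 25938 to 30425 CPM in control), and the part of the latter in the former was not tested.

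Among the 8 genes of NOTCH input to cushion EMT, 3 were higher and 1 lower at the unadjusted level (median 0.11), and 3 did not overlap. *Heyl*, a NOTCH target of the HEY family of bHLH repressors, was at 30.1 ± 2.52 CPM in control and 38.2 ± 2.90 CPM in mutant libraries (log2 fold change 0.34, adjusted p = 0.234 from limma, exact permutation p = 0.0286). *Jag1*, a ligand that MIB1 ubiquitinates, was at 94.5 ± 5.65 and 114 ± 7.48 CPM (log2 fold change 0.27, adjusted p = 0.240, exact permutation p = 0.0286). For *Rbpj*, the DNA-binding subunit, the levels were 86.3 ± 6.95 and 97.2 ± 4.04 CPM (log2 fold change 0.17, adjusted p = 0.389, or 0.094 with the GC trend removed). The gene at a lower level was *Dll4*, the endothelial ligand, named here after its values were seen.

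The list of dimer partners, inhibitors and corepressors of the members held 20 genes, of which 5 were higher and 0 lower at the unadjusted level (median 0.05). *Hdac2*, a deacetylase of repressor complexes, was at 178 ± 12.7 and 213 ± 18.5 CPM (log2 fold change 0.26, adjusted p = 0.270, or 0.16 with the GC trend removed). *Id4* and *Id1* encode HLH proteins that hold bHLH dimers away from DNA, and *Id4* was at 11.4 ± 2.19 and 15.4 ± 0.897 CPM (log2 fold change 0.44, adjusted p = 0.270) and *Id1* at 77.6 ± 9.65 and 91.6 ± 5.72 CPM (0.25, adjusted p = 0.351, or 0.16 without control replicate 1). The other 2 at this level were *Id2* and *Tcf12*, a bHLH partner of TWIST proteins, named after their values were seen.

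Of 23 other cushion transcription factors, 21 were in the table, and 0 were higher and 1 lower at the unadjusted level (median 0.05). That gene was *Snai3*, the third SNAI paralog, which was low at 2.28 ± 0.171 CPM in control and 1.48 ± 0.220 CPM in mutant libraries, without overlap (log2 fold change -0.49, adjusted p = 0.310 from limma, exact permutation p = 0.0286). *Meox1*, a homeobox gene of mesoderm, was at 111 ± 8.39 and 127 ± 14.8 CPM (log2 fold change 0.19, adjusted p = 0.437), and *Sox11* at 97.4 ± 12.3 and 112 ± 19.2 CPM (log2 fold change 0.20, adjusted p = 0.499, or 0.084 without mutant replicate 1).

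Genes that the members are known to repress or to turn on were read last. Of 22 epithelial genes, 12 were in the table, and *Cdh1*, the E-cadherin gene and textbook target of SNAI1 and ZEB1, was not among them. Of the 12, 0 were higher and 2 lower at the unadjusted level (median -0.05). These were *Dsp*, the desmosome gene that myocardium also expresses, at 759 ± 66.6 and 643 ± 37.6 CPM (log2 fold change -0.24, adjusted p = 0.310), and the polarity gene *Llgl2* at 34.1 ± 3.09 and 27.5 ± 2.53 CPM (log2 fold change -0.31, adjusted p = 0.272, or -0.19 with the GC trend removed), both without overlap. *Cldn4*, a tight junction gene, was around 1 CPM (0.810 ± 0.276 and 1.57 ± 0.929 CPM, log2 fold change 0.59, adjusted p = 0.434, or 0.32 without mutant replicate 1).

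Among 26 mesenchymal and cushion matrix genes, 3 were higher and 1 lower at the unadjusted level, and the median log2 fold change was 0.12. The receptor gene *Pdgfrb* was at 144 ± 10.2 and 169.9 ± 11.98 CPM (log2 fold change 0.24, adjusted p = 0.287), the mesenchymal cadherin *Cdh11* at 251 ± 20.7 and 308 ± 48.1 CPM (0.29, adjusted p = 0.331, or 0.19 without mutant replicate 2), and the matrix protease *Mmp2* at 299 ± 20.6 and 350.4 ± 38.5 CPM (0.22, adjusted p = 0.356). The lower one was *Cdh2*, N-cadherin, which cardiomyocytes also express, named after its values were seen.

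Of 12 SOX9 cartilage-type targets, 9 were in the table, and 3 were higher and 1, *Col2a1*, lower at the unadjusted level (median 0.13). By sign alone, 5 had a log2 fold change above 0 and 4 below it, in a range from -0.38 to 0.51. *Col9a1*, a collagen IX chain, had the smallest adjusted p of all 7 lists, with 156 ± 14.8 CPM in control and 223 ± 28.1 CPM in mutant libraries and no overlap (log2 fold change 0.51, adjusted p = 0.142 from limma, exact permutation p = 0.0286). *Col11a1* was at 62.6 ± 1.91 and 73.7 ± 7.49 CPM (log2 fold change 0.23, adjusted p = 0.326), and *Hapln1*, which links hyaluronan to proteoglycan, at 331 ± 41.8 and 395 ± 26.8 CPM (0.26, adjusted p = 0.331, or 0.14 with the GC trend removed). *Sox9* itself had its interval centred close to 0, as given above.

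Markers of the cell types of the OFT were set beside these values. The summed level of the 8 cushion mesenchyme markers ran from 6832 to 7446 CPM in control and from 6225 (mutant replicate 1) to 8486 CPM (mutant replicate 2), and 6 of 8 had a mean log2 level above control. *Postn*, a matrix gene of cushion mesenchyme, was at 515 CPM in mutant replicate 1 and 1172 CPM in mutant replicate 2, against 594 to 691 CPM in control. In mutant replicate 2, *Postn*, *Col3a1*, *Pdgfra* and *Fbln2* exceeded every control library, while *Vcan*, *Has2*, *Col1a1* and *Tnc* lay inside their control ranges. Mutant replicate 2 held the highest mesenchyme marker sum, carried by part of the list, while 8 of the 10 transcription factors were below their mean in it. The 5 epicardial markers were also highest in mutant replicate 2 (524 CPM, the other libraries 305 to 416 CPM).

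The 5 listed markers of neural crest with its glia and neurons had a sum of 89.8 to 115 CPM in control and 64.8 to 111 CPM in mutant libraries, lowest in mutant replicate 2. *Sox10* was at 1.10 to 4.27 CPM. Over 90 relations of 10 members with 9 marker sums, added after seeing the data, 0 passed Benjamini-Hochberg adjustment and 5 had an unadjusted exact permutation p under 0.05. The closest was that of *Msx2* with the neural crest markers, with r = 0.93 (exact permutation p = 0.0012, adjusted 0.112) and rho = 0.95 (exact permutation p = 0.0011, adjusted 0.103). It was 0.85 without control replicate 2 and mutant replicate 2.

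The groups did not overlap for 2 marker lists. The sum of the 11 cardiomyocyte markers was lower in each mutant library, as given above (exact permutation p = 0.0286). Of these markers, 10 were lower at the unadjusted level. The 6 listed markers of second heart field and pharyngeal mesoderm summed to 38.1 to 44.6 CPM in control libraries. Their mutant sums were 56.3 to 93.9 CPM (exact permutation p = 0.0286). *Isl1*, the largest part of each sum, ran from 25.7 to 32.96 CPM in control and 40.7 to 59.2 CPM in mutant libraries. *Tlx1* did not overlap either (2.77 to 3.22 and 3.41 to 5.92 CPM), whereas *Fgf10*, *Six2*, *Eya1* and *Tbx1* overlapped. The highest sum, that of mutant replicate 1, included *Six2* at 17.7 CPM (2.13 to 2.94 CPM in the other mutant libraries). These CPM are relative to a TMM-scaled library size, and a smaller cardiomyocyte share can still raise the CPM of genes of other cells. The part of this in the values of the 10 factors was not tested. Endothelial markers (9 of 9 listed) summed to 847 to 1062 and 871 to 952 CPM, smooth muscle markers (6 of 6) to 3105 to 3586 and 2912 to 3503 CPM, erythroid markers (6 of 6) to 1328 to 2610 and 1138 to 3740 CPM, and macrophage markers (7 of 7) to 51.5 to 64.7 and 52.8 to 76.7 CPM. Of the 7 markers of pharyngeal endoderm and epithelium, 0 were in the table.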

How the data were processed

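RNA of pooled mouse OFT was sequenced in 4 control and 4 *Mib1V943F/+ Gata6STOP/+* libraries (poly A+ RNA, directional kit, 60 bp single-end reads). After trimming adapters with cutadapt 1.18, the authors estimated expression on GRCm38 (Ensembl genes) with RSEM 1.2.3. Their filter asked for 1 CPM in no fewer than 3 samples, and the TMM method of edgeR 3.32.1 (R 4.0.3) set the scale, per the authors. The deposited values are thus CPM relative to each library's TMM-scaled size. They sum to 983361 to 1016347 per library, and 100% were whole multiples, within 0.01 reads, of a step found from the gaps between low values and taken as 1 read. The depths rest on that step, since the file holds no counts, and derived reads entered no test between genotypes.

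Values were tested as log2(CPM + 0.5) with lmFit and eBayes with a trend (limma 3.58.1, R 4.3.3), two-sided, with genotype as the term and Benjamini-Hochberg adjustment over the 14608 genes at a threshold of 0.05. Exact permutation tests over the 70 relabellings of 4 against 4 were added for single values, unadjusted and two-sided, with 0.0286 as the smallest p. Correlations used Python 3.11.15 with all 40320 orderings. The members and the lists were chosen with earlier results of these data known. Genes were named by a rule: the members, the 3 most similar genes to each (of which the text gives the first and a few others), the 3 smallest p-values of each list, *Gata6* and *Mib1*. Coordinates and GC content came from GENCODE M21 (14594 identifiers matched), and promoters from RefSeq. Alternatives were other pseudocounts, a filter, median centring, GC correction, a replicate block and leaving out each library. The fits were tested on simulated data. The 13 genes without a symbol entered the fit and are not named.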

Additional observations from a re-analysis of the deposited data

Results flagged for a closer look

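In groups of 4 libraries, a value was set apart where its gap to the nearest of the others, divided by the range of the group, exceeded the 95% critical value of Dixon. Of 66 groups (the members, the targeted genes and the named genes of the lists, in each genotype), 7 met this, where chance gives about 1 in 20, or 3.3.

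Among the members, *Snai1* was at 15.2 CPM in control replicate 1 (the other control libraries 20.7 to 21.1 CPM), *Zeb2* at 71.3 CPM in mutant replicate 2 (the others 63.1 to 64.3 CPM) and *Msx2* at 8.76 CPM in mutant replicate 2 (the others 14.5 to 14.6 CPM). Of the genes around them, *Heyl* was at 26.3 CPM in control replicate 1 (the others 31.2 to 31.5 CPM) and *Hdac2* at 241 CPM in mutant replicate 2 (the others 203 to 205 CPM). Mutant replicate 1 held the low value of *Meox1*, 105 CPM against 132 to 137 CPM, and the high value of *Sox11*, 141 CPM against 99.6 to 106 CPM.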

How the results depend on the processing

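In the alternatives run (pseudocounts of 0.1 and 1 CPM, a mean of at least 5 CPM, median centring, GC correction, a replicate block, the block with GC correction, and leaving out each library) 0 genes passed the adjusted threshold in limma. The planned count models were not run on these normalized values. Of the 10 members, 0 reached an unadjusted p under 0.05 as reported, 1 (*Twist1*) in the replicate block with GC correction, and 0 to 3 when each library was left out. Over all 14608 genes, 796 were higher and 967 lower at that level as reported, and 636 and 857 in the block with GC correction. With each library left out in turn, 450 to 1068 genes were higher and 671 to 1095 lower. Leaving out 1 library turned the sign of 7 log2 fold changes, which then ranged from -0.035 to 0.22 for *Snai1*, -0.038 to 0.16 for *Twist1*, -0.066 to 0.22 for *Twist2*, -0.062 to 0.031 for *Zeb1*, -0.064 to 0.16 for *Msx1*, -0.077 to 0.19 for *Msx2* and -0.14 to 0.080 for *Sox9*. *Mib1*, at 0.07, turned to -0.012 with GC correction, with or without the block. The replicate numbers were not taken as pairs, since same-numbered libraries had correlated deviations of 0.01, -0.27, 0.05 and -0.01. With the replicate block 0 members passed and the smallest adjusted p was 0.412, with 559 genes higher and 745 lower at the unadjusted level.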
